A study of Mus musculus with 6 samples.

Results

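Transcripts of 10 genes of the BCL2 family were compared in WT and PP2Aa-deficient mouse B cells. This family decides through the mitochondria whether a cell lives or dies. PP2Aa is the alpha form of the scaffold on which protein phosphatase 2A is assembled. The genes were chosen by symbol. They comprise 4 pro-survival genes (Bcl2, Bcl2l1, Mcl1 and Bcl2a1b), the 2 effectors Bax and Bak1, and 4 BH3-only genes (Bcl2l11, Bad, Bid and Bmf), which makes 10 of the 22788 genes in the table. Levels are FPKM, in which fragments are divided by the length of the transcript and by the size of the library, so genes can be compared per length. The test covered the 9425 genes that reached 1 FPKM in at least 3 of the 6 libraries. Every one of the 10 was above this level in each library, with a lowest value of 1.84 FPKM.

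Pro-survival proteins of this family bind and restrain BAX and BAK, which otherwise open the outer mitochondrial membrane and release cytochrome c. BH3-only proteins carry signals of stress or lost survival input to both sides, by occupying the pro-survival proteins or by engaging BAX and BAK. Mature B cells are known to depend on MCL1 and BCL2, and BIM, the product of Bcl2l11, limits their number. Protein phosphatase 2A is known to act on phosphorylated members such as BAD and BCL2, a level that transcripts do not show.

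The WT group held 3 libraries of B cells from wild type C57BL/6 mice. The PP2Aa-deficient group held 3 libraries from mice with Ppp2r1a flox/flox and a Cre recombinase active in B cells, on the same strain background. All mice were 8 weeks of age. No label gives the WT mice a Cre or a floxed allele, so effects of Cre and of the targeted subunit cannot be told apart. The labels give the tissue as spleen, while their protocols describe cells washed from the peritoneum. No label says that each library came from its own mouse, so the p-values speak only to how these libraries vary.

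Depth, read from the steps of low values and GENCODE M21 transcript lengths, was about 2000000 to 3640000 fragments per library. Ppp2r1a was lower in every PP2Aa-deficient library, at 31.3, 56.2 and 28.2 FPKM against 85.7, 85.4 and 83.7 in WT. Its log2 change was -1.18 (SE 0.23, limma adjusted p = 0.168 over all genes). The PP2Aa-deficient mean was 45.4% of WT, so RNA of the targeted gene was reduced and not absent. All comparisons below are with such libraries. Of the B cell markers, 8 of 8 reached 1 FPKM in at least 3 libraries, called detected here, and their summed level was 3268 to 3395 FPKM in the WT libraries, against 3165 to 3576 in the deficient ones. Plasma cell markers summed to 1119 to 1824 FPKM in the WT libraries, against 537 to 808 in the deficient ones, with 6 of 6 detected, and macrophage markers to 184 to 359 and 104 to 163 FPKM, with 5 of 8 detected. Germinal centre markers, 4 of 7 detected, summed to 92.6 FPKM in WT replicate 1, at most 48.2 in the other WT libraries and 27.5 to 49.3 in PP2Aa-deficient libraries. Markers of T cells summed to 19.3 to 36.4 FPKM in WT and 18.2 to 26.0 in the other group, with 3 of 7 detected, those of neutrophils to at most 6.40 FPKM in any library, with 1 of 6 detected and Elane and Camp listed at 0 throughout. Eosinophil and mast cell markers, 1 of 6 detected, summed to 22.2 to 41.0 FPKM in WT and 6.09 to 15.8 in the other group, nearly all of it Prg2, while Epx was listed at 0. Natural killer markers, 1 of 5 detected, summed to 3.35 to 7.59 FPKM and 0.872 to 3.33. B-1 cell markers, 4 of 6 detected, summed to 63.9 to 81.9 FPKM and 56.0 to 84.6. The plasma cell, macrophage, eosinophil and mast cell, and natural killer sums were thus each lower in every PP2Aa-deficient library than in any WT library. Most of the macrophage sum was Apoe, at means of 232 FPKM in WT and 98.8 in PP2Aa-deficient libraries. Emr1 was apart in the same direction, while Cd68, Lyz2 and Csf1r overlapped. Of the plasma cell markers, Igj (means 925 and 282 FPKM), Xbp1, Sdc1 and Prdm1 were also apart, while Mzb1 and Tnfrsf17 overlapped. The natural killer sums parted narrowly, at 3.35 against 3.33 FPKM, and the detected marker, Il2rb, was lower in every PP2Aa-deficient library. In bulk RNA, fewer cells of a type and less RNA per cell cannot be told apart, and the part of these cells in the values that follow was not tested.

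None of the 10 genes passed the test between the groups by limma over all genes (adjusted p under 0.05), with 0 higher and 0 lower. At an unadjusted p under 0.05 the count was also 0, and it became 1 in 3 alternatives of the limma fit across all genes, with Bak1 under array weights or without WT replicate 3 and Bid without PP2Aa-deficient replicate 2. Over the whole table limma called 3 genes, or 0.0318% of those tested, all lower, and 9.47% had an unadjusted p under 0.05. That split of 0 higher and 3 lower genes became 7 higher and 4 lower under quantile normalization, in which the count of BCL2 family genes called was again 0. The log2 changes of the 10 genes ran from -0.21 to 0.44, with a median of -0.098 and a median size of 0.13, against a median of -0.0068 and a median size of 0.17 over all genes tested. All 4 pro-survival genes lay below WT, with a median of -0.098, as they did under quantile and median-ratio scaling, though Bcl2l1 and Bcl2a1b changed side when single libraries were left out. Of the 6 pro-death genes, 3 lay above WT and 3 below, with a median of -0.061. Of all genes tested, 51.1% lay below WT.

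**Figure D1:**
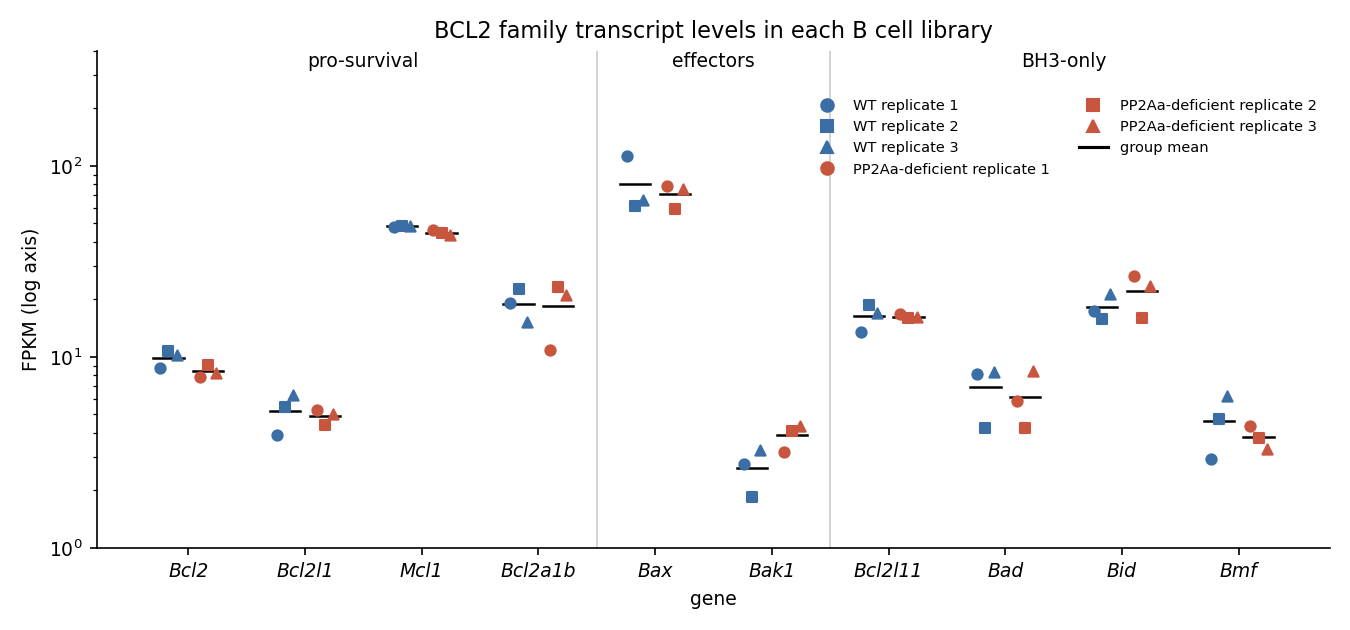
FPKM on a log axis for the 10 BCL2 family genes in each of the 3 WT and 3 PP2Aa-deficient libraries, with group means as lines. Bax and Mcl1 stand above the rest in every library, and Mcl1 alone has groups that do not overlap, with PP2Aa-deficient values of 43.6 to 46.1 below WT values of 47.6 to 48.5.

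The levels spanned a wide range, and their order by group mean was the same in both groups except for the neighbours Bid and Bcl2a1b and the neighbours Bmf and Bak1. Bax was the highest in every library, at 59.7 to 112 FPKM, and Mcl1 was next, at 43.6 to 48.5. Below them came Bid, Bcl2a1b and Bcl2l11, with mean levels over the 6 libraries of 20.1, 18.6 and 16.3 FPKM and ranges that overlapped, so their order is not resolved. Bcl2 followed at a mean of 9.13 FPKM, below Bcl2l11 in all 6 libraries. Bad, Bcl2l1, Bmf and Bak1 were the lowest, at means of 6.54, 5.07, 4.21 and 3.25 FPKM, and each overlapped its neighbour in this order, as Bad did with Bcl2.

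Mcl1 encodes a short-lived pro-survival protein that B cells need at nearly all stages. It measured 47.6, 48.3 and 48.5 FPKM in the WT libraries, against 46.1, 44.4 and 43.6 in the deficient ones. Every PP2Aa-deficient value lay below every WT value, the 1 case of groups that did not overlap among the 10 genes, while 7.4% of all genes tested had groups apart in this direction and 7.7% in the other. The step was small, at 92.8% of WT, and the spread within WT was 0.95% of the mean. That spread is below the error of counting fragments alone, about 5% at the mean for Mcl1 by the depth estimate. The closeness of the WT values is therefore no measure of precision. Relative to WT the log2 change was -0.11 (SE 0.11, 95% interval -0.36 to 0.15), and limma's adjusted p was 0.829, with a standard error that borrows spread from other genes of this level. Between the library pair with high Xist, which is expressed from the inactive X chromosome (WT replicate 1 and PP2Aa-deficient replicate 1), the log2 difference was -0.047, and among the other 4 libraries it was -0.13. Mcl1 made up 58.7% ± 2.81 (SD, n = 3) of the summed pro-survival FPKM in WT, and 58.8% ± 6.06 in the PP2Aa-deficient libraries.

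Bcl2, the founding member and a guard of resting mature lymphocytes, measured 8.76, 10.7 and 10.2 FPKM in the WT libraries, against 7.86, 9.03 and 8.25 in the deficient ones. The groups overlapped through WT replicate 1, which lay below PP2Aa-deficient replicate 2. Its log2 change was -0.21 (SE 0.15, 95% interval -0.56 to 0.13, limma adjusted p = 0.723). Bcl2l1 encodes BCL-XL, known for protecting B cells during development and activation. It was at 3.91, 5.46 and 6.28 FPKM in the WT libraries, against 5.28, 4.42 and 5.05 in the deficient ones, with the PP2Aa-deficient values inside the WT range. Its log2 change was -0.055 (95% interval -0.50 to 0.39) and turned positive without WT replicate 3 or PP2Aa-deficient replicate 2.

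Bcl2a1b is 1 of several mouse copies of the gene for A1, an NF-kB-induced pro-survival protein of lymphocytes and myeloid cells. It measured 19.0, 22.6 and 15.1 FPKM in the WT libraries, against 10.8, 23.1 and 21.2 in the deficient ones. PP2Aa-deficient replicate 1 was the lowest library and the other PP2Aa-deficient libraries were within or just above the WT range. Its log2 change of -0.091 (95% interval -0.72 to 0.54) turned positive without PP2Aa-deficient replicate 1 or WT replicate 2.

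The A1 copies lie on chromosome 9 and are near-identical, which limits how the level of any single copy can be read. The start of the coding sequence is shown for 3 copies because it holds the densest differences between them. Bases that vary among the 3 are in capitals, 5′ to 3′, from coding base 1 to 60 of the GENCODE M21 transcripts.
Bcl2a1a: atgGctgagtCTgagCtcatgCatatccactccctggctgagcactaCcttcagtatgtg
Bcl2a1b: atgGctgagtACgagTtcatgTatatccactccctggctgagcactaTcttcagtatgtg
Bcl2a1d: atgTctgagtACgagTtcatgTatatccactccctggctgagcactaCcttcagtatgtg
This stretch holds 6 of the 12 variable positions in 519 coding bases. Bcl2a1b was 98.8% identical to Bcl2a1d and 97.9% identical to Bcl2a1a, and 52.3% of its coding stretches of 50 bases occurred unchanged in another copy. In the table Bcl2a1a was above 0 in 1 library, at 0.741 FPKM, and Bcl2a1d in 3, at no more than 2.22. Bcl2a1c, another row, was at 3.63 FPKM in WT replicate 2, at 3.003 in PP2Aa-deficient replicate 3 and at 0 elsewhere. Most of the A1 signal was thus assigned to Bcl2a1b, and how fragments shared by the copies were divided is not given in the sources used here. The value is therefore uncertain for Bcl2a1b itself. With the rows of the A1 copies summed, the log2 change was -0.13 (limma adjusted p = 0.92).

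Bax, the effector that moves from the cytosol to mitochondria during apoptosis, measured 112, 61.3 and 66.5 FPKM in the WT libraries, against 78.5, 59.7 and 75.5 in the deficient ones. WT replicate 1 stood above all others, and it was also the WT library with the highest summed markers of plasma, germinal centre, B-1, T, natural killer and myeloid cells, whose part in the Bax level was not tested. The log2 change was -0.12 (SE 0.23, 95% interval -0.64 to 0.40, limma adjusted p = 0.912). Without WT replicate 1 it was 0.15, so the direction rested on that library. Bax supplied 71.5% of the summed FPKM of the 6 pro-death genes in WT replicate 1 and 54.2% to 58.1% in the other 5 libraries. Pmaip1, a BH3-only gene at 59.4 to 81.3 FPKM, is not among the 6 and not in this sum.

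Bak1 encodes BAK, the effector that sits in the mitochondrial membrane of healthy cells, and had the largest log2 change of the 10 genes. It measured 2.74, 1.84 and 3.26 FPKM in the WT libraries, against 3.17, 4.10 and 4.36 in the deficient ones. WT replicate 3 lay just above PP2Aa-deficient replicate 1, so the groups overlapped. Group means were 2.61 ± 0.716 and 3.88 ± 0.626 FPKM (SD, n = 3), a log2 change of 0.44 (SE 0.22, 95% interval -0.052 to 0.94) with limma p-values of 0.0734 before and 0.566 after adjustment. Each value rested on about 14 to 24 fragments by the depth estimate, fewer than for Mcl1, with about 303 to 600. The log2 difference was 0.16 in the library pair with high Xist and 0.59 among the other 4 libraries.

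Bak1 lies on chromosome 17, as Ppp2r1a does, and wholly within the span of Ggnbp1 in the RefSeq annotation of GRCm38.p6, used here for neighbours only. Ggnbp1 was at 0.891, 0.919 and 0.896 FPKM in the WT libraries, against 3.26, 1.13 and 2.87 in the deficient ones. All PP2Aa-deficient values were above WT, but Ggnbp1 met the filter only through those libraries and was named after its values were seen. Its direction is therefore no evidence, and its values are given with no test. In the same order of libraries Bak1 was at 2.74, 1.84 and 3.26 FPKM in WT, against 3.17, 4.10 and 4.36 in the deficient ones. A link between these genes was not tested. The use of strand in counting is not given, and fragments of the overlapping genes cannot be separated.

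**Figure D2:**
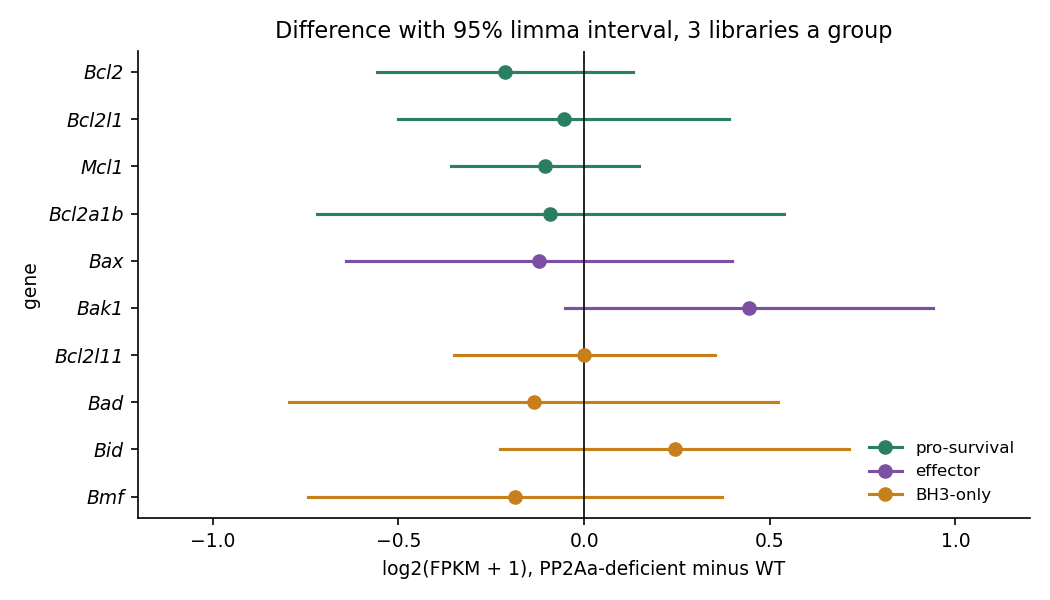
Difference in log2(FPKM + 1) between PP2Aa-deficient and WT B cells for each gene, with its 95% limma interval from 3 libraries a group. All 10 intervals include 0, from Bcl2 at -0.21 to Bak1 at 0.44, and the interval of Mcl1 is the narrowest.

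Bcl2l11 encodes BIM, a BH3-only protein that binds every pro-survival member. It measured 13.5, 18.7 and 16.98 FPKM in the WT libraries, against 16.7, 15.9 and 16.1 in the deficient ones. The PP2Aa-deficient values lay inside the WT range, and the group means were 16.4 ± 2.66 and 16.2 ± 0.415 FPKM (SD, n = 3). The log2 change was 0.00047 with a 95% interval of -0.35 to 0.35, so a shift of either sign within those bounds could not be told from none.

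Bid, whose product is cut by caspases and links death receptors to mitochondria, measured 17.4, 15.8 and 21.4 FPKM in the WT libraries, against 26.5, 15.9 and 23.6 in the deficient ones. PP2Aa-deficient replicates 1 and 3 were above every WT library and replicate 2 was not. The log2 change was 0.24 (SE 0.21, 95% interval -0.23 to 0.71, limma adjusted p = 0.783). In the library pair with high Xist it was 0.58, and among the other 4 libraries 0.074.

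Bad, whose product is held inactive by phosphorylation, was at 8.15, 4.24 and 8.36 FPKM in the WT libraries, against 5.85, 4.26 and 8.39 in the deficient ones. Each group held a library near 4 and another above 8 FPKM. The log2 change was -0.14 (95% interval -0.79 to 0.52), on about 13 to 32 fragments per value, and turned positive without WT replicate 3 or PP2Aa-deficient replicate 2. Bad overlaps Gpr137 in the annotation, which measured 1.71 to 3.02 FPKM in the WT libraries, against 2.66 to 4.18 in the deficient ones.

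Bmf, a BH3-only gene linked to the cytoskeleton and to lymphocyte homeostasis, was at 2.91, 4.70 and 6.23 FPKM in the WT libraries, against 4.33, 3.77 and 3.30 in the deficient ones. The PP2Aa-deficient values fell within the WT range. The log2 change was -0.19 (95% interval -0.74 to 0.37, limma adjusted p = 0.869), and it was 0.018 without WT replicate 3.

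The 4 pro-survival and 6 pro-death genes were set against each other within each library, as a description with no test. Pmaip1 and Bbc3, BH3-only genes given below, are not among the 6. The mean log2(FPKM + 1) of the 4 pro-survival genes minus that of the 6 pro-death genes was 0.22, 0.65 and 0.18 in the WT libraries, against -0.020, 0.45 and 0.15 in the deficient ones. The groups overlapped, and replicate 2 was the highest library in each. Means were 0.35 ± 0.26 and 0.19 ± 0.24 (SD, n = 3), a difference of -0.16 that is smaller than either SD. It moved with single libraries, to -0.0067 without WT replicate 2, -0.050 without PP2Aa-deficient replicate 1, -0.24 without WT replicate 3 and -0.29 without PP2Aa-deficient replicate 2.

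Of the 4 gene pairs set against each other, 1 ratio, that of Bcl2 to Bcl2l11, had groups that did not overlap. Among single genes tested, 15.1% had groups apart in either direction, and the share among ratios was not computed. The Bcl2 to Bcl2l11 ratio was 0.650, 0.574 and 0.599 in the WT libraries, against 0.470, 0.567 and 0.512 in the deficient ones. WT replicate 2 and PP2Aa-deficient replicate 2 were nearly equal. With 3 libraries against 3, no exact permutation test could go below p = 0.1. The ratio of Mcl1 to Bcl2l11 was 3.53, 2.58 and 2.86 in the WT libraries, against 2.76, 2.79 and 2.71 in the deficient ones, and the groups overlapped. So did those of Bcl2 to Bax, with means of 0.135 ± 0.0508 and 0.120 ± 0.0274, and of Bcl2l1 to Bad, with means of 0.840 ± 0.412 and 0.848 ± 0.223 (SD, n = 3).

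**Figure D3:**
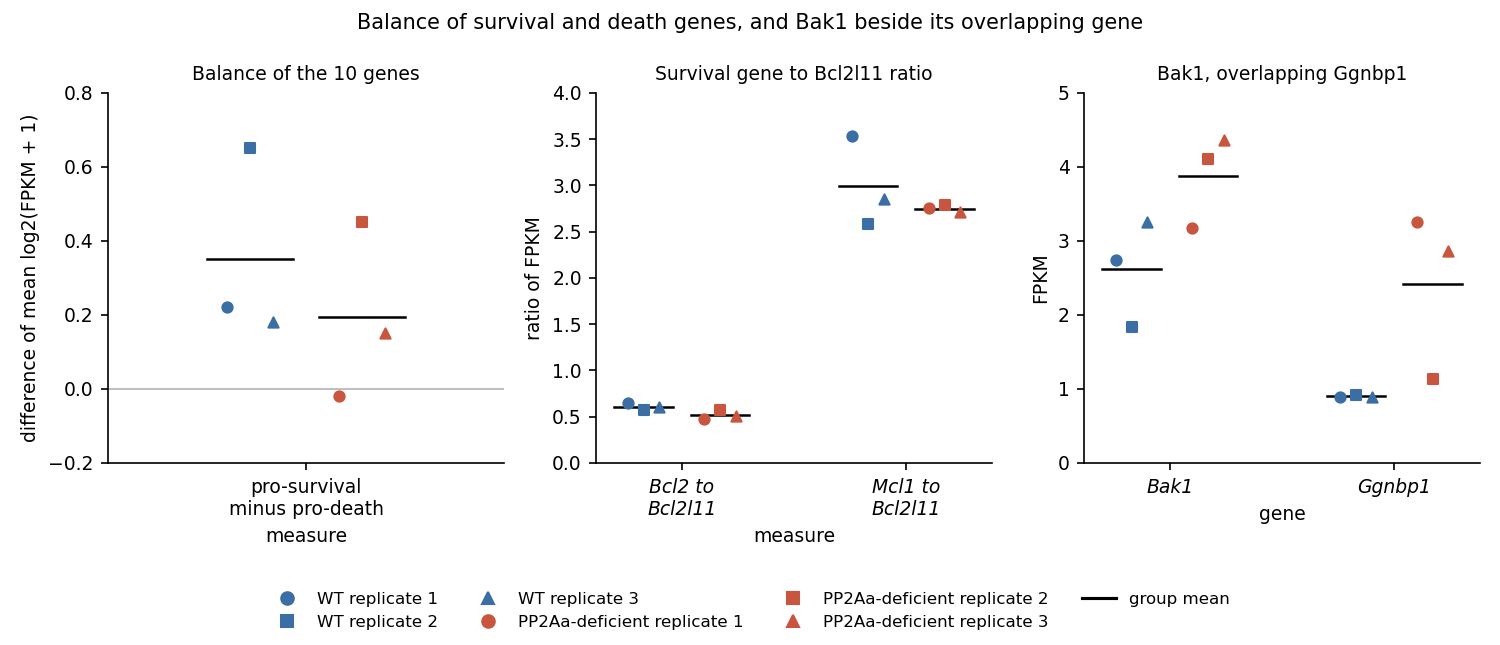
Each panel shows the 3 WT and 3 PP2Aa-deficient libraries with group means: the difference of mean log2(FPKM + 1) between pro-survival and pro-death genes, the FPKM ratios of Bcl2 and Mcl1 to Bcl2l11, and the FPKM of Bak1 and the overlapping Ggnbp1. Bcl2 to Bcl2l11 is lower in all 3 PP2Aa-deficient libraries by a narrow gap (at most 0.567 against least 0.574) and was not tested. Ggnbp1 met the filter only through the PP2Aa-deficient libraries and is shown with no test.

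Among 16 other genes of the family, 6 were expressed enough to be tested and 0 passed limma over all genes, nor did any have an unadjusted p under 0.05. Pmaip1, which encodes the MCL1-binding BH3-only protein NOXA, was at 59.4 to 78.1 FPKM in the WT libraries, against 65.2 to 81.3 in the deficient ones. No other BH3-only gene listed here reached these levels in any library. Bbc3, which encodes the p53-induced BH3-only protein PUMA, was at 5.06, 4.32 and 3.10 FPKM in the WT libraries, against 7.73, 6.51 and 4.43 in the deficient ones, with a log2 change of 0.48 (SE 0.23, limma adjusted p = 0.566). The other tested genes were Bcl2l12, Bcl2l13, and the mitophagy genes Bnip3 and Bnip3l, with log2 changes of 0.017, -0.26, 0.32 and 0.075. Bcl2l2, encoding the pro-survival protein BCL-W, did not exceed 0.607 FPKM, and Hrk and Bcl2l10 were listed at 0 in every library.

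Downstream of the mitochondria, 12 of 13 listed genes of the apoptosome and of the mitochondrial membrane were tested and 0 passed limma over all genes. At an unadjusted limma p under 0.05 there was 1 gene of the 12, against a share of 9.47% over all genes tested. That gene, Casp6, an effector caspase, was at 11.5, 15.8 and 10.3 FPKM in the WT libraries, against 10.7, 7.26 and 7.46 in the deficient ones (log2 change -0.51, SE 0.21, limma adjusted p = 0.501). The outer membrane channel gene Vdac3 measured 24.9 ± 2.73 FPKM in WT and 31.2 ± 4.04 with PP2Aa deficiency (SD, n = 3), which did not pass the test. Of 7 inhibitor of apoptosis genes 5 were tested, 0 passed and 0 had an unadjusted p under 0.05. Birc3, an NF-kB target, was the most expressed of them, at 62.1 ± 5.97 and 55.2 ± 7.03 FPKM. Birc2 measured 18.9 ± 1.56 and 16.8 ± 1.62 FPKM, and Birc6 9.90 ± 1.54 and 11.01 ± 0.163.

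Of 9 tested genes of the death receptor pathway 0 passed limma over all genes. Tnfrsf1a met the filter only through WT and is set aside. The 8 others lay below WT, under each of the 3 scalings too, as did 51.1% of all genes tested, with a median log2 change of -0.14, and 1 had an unadjusted p under 0.05, where the share over all genes was 9.47%. Tnfrsf10b, the mouse receptor for the death ligand TRAIL, was at 5.13, 5.84 and 6.91 FPKM in the WT libraries, against 2.84, 2.55 and 2.17 in the deficient ones. The groups were well apart, with a log2 change of -0.98 (SE 0.18, 95% interval -1.40 to -0.56, limma adjusted p = 0.146). Tnfrsf1a, a receptor for tumour necrosis factor, was at 1.14, 1.2997 and 1.12 FPKM in the WT libraries, against 0.193, 0.235 and 0 in the deficient ones, given with no test. Cflar, which blocks caspase activation at the receptor, measured 11.8 ± 0.714 and 10.7 ± 1.93 FPKM (SD, n = 3).

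**Figure D4:**
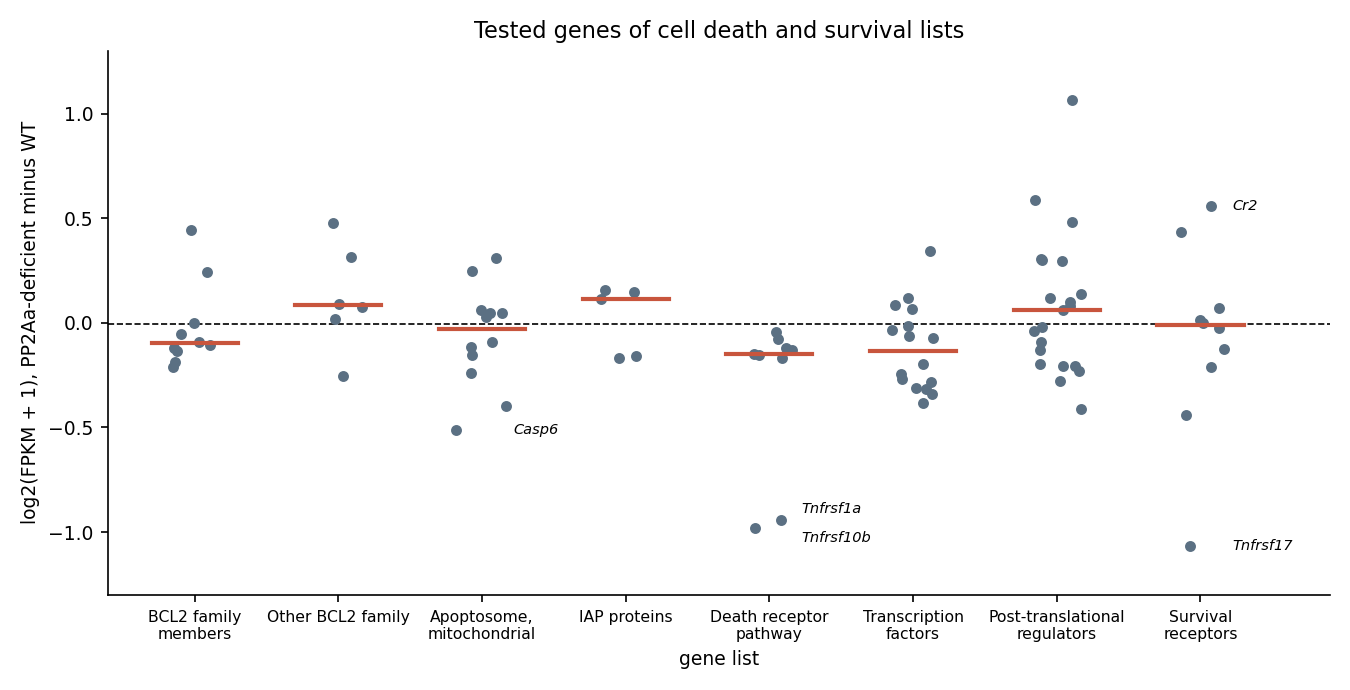
Differences in log2(FPKM + 1) between PP2Aa-deficient and WT B cells for the tested genes of each list, with the list's median as a red line and the median of all genes tested (-0.0068) as a dashed line. Tnfrsf1a met the filter only through WT but is drawn, and it enters the red line of its list (-0.15, or -0.14 without it). The 10 BCL2 family members lie between -0.21 and 0.44, while single genes such as Tnfrsf10b, at -0.98, and Cr2, at 0.56, lie outside that span, and no gene shown passed limma over all genes.

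Upstream, 16 of 16 transcription factor genes known to act on the family were tested, with 0 past limma over all genes, 12 below WT, where 51.1% of all genes tested lay, and a median log2 change of -0.14. Stat3, a mediator of cytokine survival signals, was at 27.1, 30.2 and 30.9 FPKM in the WT libraries, against 22.7, 20.4 and 23.8 in the deficient ones (log2 change -0.38, SE 0.13, limma adjusted p = 0.414), the 1 gene with an unadjusted p under 0.05, where 9.47% of all genes tested had one. Ddit3, the stress factor CHOP, which can induce Bcl2l11, measured 151 ± 7.76 and 128 ± 8.37 FPKM, and Nfkb1 18.1 ± 2.36 and 14.3 ± 1.18 (SD, n = 3). Both came short of the test.

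Of 23 genes whose products modify or bind BCL2 family proteins, 21 were tested, with 11 above WT, 10 below and 0 past limma over all genes. Mapk3, a kinase gene of the ERK pathway, measured 3.31 ± 0.987 and 4.95 ± 0.672 FPKM, and Ywhah, an adaptor of a family that holds phosphorylated BAD in the cytosol, 47.4 ± 5.001 and 58.4 ± 2.85 (SD, n = 3). Neither passed, with limma adjusted p of 0.527 and 0.510. Of 6 tested Ywha genes of this family 4 lay below WT, with log2 changes of -0.28 for Ywhae, -0.23 for Ywhag and -0.20 for both Ywhaq and Ywhaz, and 0 passed.

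Of 10 receptor genes that carry survival signals in B cells, 10 were tested, with 4 above WT, 6 below (5 and 5 under quantile or median-ratio scaling) and 0 past limma over all genes. Tnfrsf17, the plasma cell receptor BCMA that sustains Mcl1, was at 7.71, 4.37 and 2.86 FPKM in the WT libraries, against 2.99, 1.81 and 0.761 in the deficient ones (limma adjusted p = 0.420). It is also a plasma cell marker and part of their summed level, which was lower in every PP2Aa-deficient library. That sum was 1824 FPKM in WT replicate 1, at most 1139 in the other WT libraries and 537 to 808 in PP2Aa-deficient libraries. The part of plasma cells in the Tnfrsf17 level was not tested. Il21r, the interleukin-21 receptor, measured 39.2 ± 5.57 and 28.8 ± 5.40 FPKM, and the complement receptor gene Cr2 42.4 ± 8.82 and 62.8 ± 11.4 (SD, n = 3). Their limma adjusted p-values were 0.483 and 0.418. Tnfrsf13c, the BAFF receptor, was at 91.5 to 105 FPKM in the WT libraries, against 87.0 to 109 in the deficient ones.

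For 3 members the genes with the most similar profiles over the 6 libraries were looked up, by the root-mean-square difference between centred log2(FPKM + 1) values. All libraries share their depth between genes, so this is a description. For Mcl1 these were Srsf5, a splicing factor gene, Supt5, a transcription elongation gene, and Eci1, at differences of 0.015, 0.020 and 0.028, where the deviation of Mcl1 from its own mean was 0.058. Supt5 was at 32.2, 32.2 and 32.7 FPKM in the WT libraries, against 29.8, 29.7 and 29.2 in the deficient ones. Its step was like that of Mcl1, which follows from how it was picked. For Bcl2 they were Vav1, a signalling gene of the B cell receptor pathway, Abtb1 and Ogdh, at 0.035, 0.036 and 0.037. For Bcl2l11 they were Prrc2c, Dusp6, an ERK phosphatase gene, and Acap1, at 0.035, 0.037 and 0.039. Dusp6 measured 17.9, 25.4 and 22.3 FPKM in the WT libraries, against 22.1, 22.7 and 21.9 in the deficient ones. WT replicate 1 was the lowest, as for Bcl2l11, by whose profile Dusp6 was picked.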

How the data were processed

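RNA was measured in 6 libraries made with a low-input Smart-seq2 protocol, per the labels' protocols. The authors deposited 1 table of FPKM values, 1 column per library, matched to samples by well code. TopHat2 2.0.10, Cufflinks 2.2.1, Cuffnorm and BWA are named in the submitters' processing notes, without role. Not given in the sources used here are the build, the annotation and the scaling in Cuffnorm. In a deposited plate sheet the wells of the WT libraries are termed miRNA controls and the others miRNA targets, unlike the labels, which set the groups.

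Of 22815 rows, 27 with dates for names were left out. Values were tested as log2(FPKM + 1) by a moderated two-sided test with a mean-variance trend (limma 3.58.1, R 4.3.3) on genes of at least 1 FPKM in at least 3 libraries, with Benjamini-Hochberg adjustment over all of them at 0.05. Fold changes on this scale understate those of low genes. The limma step was tested on simulated data. Intervals are limma's, at 95%. Relative depths of 0.97 to 1.76 came from the most common ratio of low values between libraries. Fragments per gene use the longest GENCODE M21 transcript and are estimates. Python 3.11.15 with pandas 2.3.3, numpy 2.4.6 and matplotlib 3.10.9 made summaries and figures.

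The members and lists were chosen with earlier results of these data known. Named were the 10 members, Ppp2r1a, every tested gene of the other BCL2 family list, the 3 genes of smallest p in each other list and the 3 nearest profiles of Bcl2, Mcl1 and Bcl2l11. A few genes that this rule selects are not reported here. Ggnbp1, Gpr137, Tnfrsf13c, other Ywha genes and untested family genes were named after their values were seen. The alternatives were a pseudocount of 0.1 or 0.5, a filter at 5 FPKM or none, quantile or median-ratio scaling, no trend, array weights, a term for Xist above 10 FPKM, summed A1 copies and each library left out.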

Additional observations from a re-analysis of the deposited data

How the results depend on the processing

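No paired analysis was possible because the labels carry no replicate numbers. The replicate numbers used here follow the order of the samples within each group, and equal numbers in the 2 groups mark no pairing. Under each of the 15 alternatives that refitted the whole table, limma called 0 BCL2 family genes and 0 genes of the other lists. Those for the other lists were added after seeing the data. The filter at 5 FPKM left 8 of the 10 members to test. Mcl1, Bcl2, Bak1 and Bid kept their direction throughout, with log2 changes of -0.13 to -0.088, -0.29 to -0.16, 0.28 to 0.57 and 0.10 to 0.45. Array weights turned Bad to 0.079, Bax to 0.050 and Bcl2l11 to -0.078. Leaving out each library in turn gave ranges of -0.41 to 0.067 for Bad, -0.28 to 0.15 for Bax, -0.28 to 0.23 for Bcl2a1b, -0.22 to 0.069 for Bcl2l1, -0.13 to 0.096 for Bcl2l11 and -0.42 to 0.018 for Bmf. The pro-survival minus pro-death difference went from -0.29 to -0.0067. Among all genes the reported test called 3, 5 with the filter at 5 FPKM, 11 with quantile normalization, 9 without the trend and 16 with array weights (11 higher and 5 lower), and 1 to 13 with a library left out. Ppp2r1a ranged from -1.48 to -0.998 with a library left out, and passed without PP2Aa-deficient replicate 2 (limma adjusted p = 0.00555). For these shifts the cause was not tested. Counts of about 13 to 32 fragments limit Bad and Bak1.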
